A study of Arabidopsis thaliana with 16 samples.

Results

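SAUR19, SAUR20, SAUR21, SAUR22, SAUR23 and SAUR24 are 6 closely related members of the SMALL AUXIN UP RNA family of Arabidopsis thaliana. They were taken by locus code (AT5G18010, AT5G18020, AT5G18030, AT5G18050, AT5G18060 and AT5G18080) and made up 6 of the 32833 loci of the deposited table. All 6 loci were present. No cut on measured values was used to take them, but earlier results of these data were known when they were chosen.

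SAUR genes encode small, short-lived proteins that rise quickly after auxin. In Arabidopsis, SAUR19 binds and inhibits phosphatases of the PP2C.D clade. These phosphatases remove a phosphate that plasma membrane proton pumps of the AHA family need for activity. With the phosphatase inhibited, the pump acidifies the cell wall, wall-loosening proteins such as expansins act, and the cell can elongate. The SAUR19 subfamily is best known from elongating hypocotyls and from seedlings that stretch in warmth or shade, where PIF transcription factors are among its regulators.

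Polyadenylated mRNA of wild-type seedlings was sequenced from roots and from shoots at an age of 10 days. Every seedling grew for 4 days on MS1/2 at 22 °C, and for 6 more days under 1 of 3 regimes: 22 °C throughout, 32 °C throughout, or 32 °C at the shoot with a root zone that became cooler with depth (called the gradient). No mutant, transgene or chemical treatment was part of the design. Values are the authors' normalised read counts, deposited as whole numbers. Replicates 1 and 2 of the 22 °C roots had equal values at all 32833 loci, as had replicates 2 and 3 of the gradient shoots, so each pair was counted as 1 library. That left 14 of 16 columns: 2 shoot libraries from 22 °C, 3 from 32 °C and 2 from the gradient, with 1, 3 and 3 root libraries from the same regimes. Whether replicates came from separate cultures is not stated, and a p-value here speaks only of the scatter among these libraries, which can be technical.

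Column totals lay between 33075029 and 34769425, and read depth is unknown. The 9 green tissue markers summed to 920005 or more in each shoot library and to 4960 or less in each root library, with 1 of them, LHCB1.5, at 0 throughout. Between shoot groups the sums of both marker lists moved: the green sum fell from 1478237 to 1485580 at 22 °C to 920005 to 975424 at 32 °C and 970873 to 1068509 in the gradient. The 7 root markers summed to 59186 to 65529, 206514 to 319937 and 226877 to 286650 in the same shoot groups, and none was at 0. Most of that sum was 1 gene, PYK10, at 55170 and 61748, 201170 to 313051, and 220794 and 279537. By the test described below, 5 of the 7 were called higher at 32 °C than at 22 °C, beside 55.5% of all tested genes. CASP4 and TIP2;3 were not called. The green list was split. Of its 8 tested genes, 6 were called lower at 32 °C than at 22 °C, beside 13.0% of all tested genes, and 2 higher. RBCS3B rose from 110539 and 114553 to 146274 to 160730, and RCA from 130462 and 141055 to 183610 to 188317. After the TMM scaling described below 6 were called lower and 0 higher. The 10 most abundant genes held 9.23% to 9.64% of the total in 22 °C shoots, 4.87% to 5.54% at 32 °C and 5.22% to 5.24% in the gradient. The part of this shift in the results below was not tested. The 6 SAUR genes together never exceeded 21 normalised counts in a root library, so root libraries held almost none of their RNA. In such whole-organ samples, a change in the number of cells that express a gene and a change in RNA per cell cannot be told apart.

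The 6 genes sit within 21.5 kb of chromosome 5. On the RefSeq TAIR10.1 assembly, where they were looked up by locus code because the authors' build is not known, each has 1 transcript with 1 exon and no gene overlaps it. The transcripts of SAUR19 (chr5:5962773-5963405), SAUR20 (chr5:5966183-5966677) and SAUR22 (chr5:5974341-5975087) lie on the minus strand. RefSeq's gene record of SAUR20 (chr5:5966183-5966785) reaches 108 bases further at the 5′ end than its transcript, while the records of the other 5 genes end where their transcripts do. SAUR21 (chr5:5968352-5969190), SAUR23 (chr5:5975780-5976589) and SAUR24 (chr5:5983683-5984308) lie on the plus strand. The proteins have 88 to 91 residues, and pairs of them were identical at 89% to 95.6% of aligned positions. Coding sequences were identical at 87.7% to 95.2%.

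The sources used here do not tell how reads shared between such copies were counted, so the split of reads among the 6 is uncertain. Of all stretches of 50 bases in a transcript, 18.5% in SAUR19, 7.11% in SAUR24, 5.83% in SAUR20, 5.19% in SAUR21, 2.63% in SAUR23 and 0.573% in SAUR22 also occurred at another locus. Each shared stretch was shared with another of the 6 genes and with no other gene. No stretch of 100 bases was shared.

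Over the 250 bases before the transcript start, pairs of genes had 42.3% to 72.8% identity in alignments of 272 to 338 columns. For SAUR20 this window lies partly inside its gene record. The windows were set by annotated transcript starts, which do not lie at matching places in the 6 genes. These values therefore cannot tell how alike matching upstream stretches are. The block below holds the 70 neighbouring alignment columns with the most bases equal in all 6 genes. Any 6 sequences would give such a best stretch, and how alike it would be elsewhere was not tested. A link between this block and the expression of the 6 genes was not tested either. Capitals mark the 31 of 70 alignment columns with the same base in all 6 genes, each sequence running 5′ to 3′ on the gene's own strand (RefSeq, TAIR10.1).
SAUR19 (chr5:5963510-5963578, minus): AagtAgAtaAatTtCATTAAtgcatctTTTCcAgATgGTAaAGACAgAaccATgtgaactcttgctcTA
SAUR20 (chr5:5966785-5966850, minus): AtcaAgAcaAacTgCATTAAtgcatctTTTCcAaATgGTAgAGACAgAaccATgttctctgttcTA
SAUR21 (chr5:5968260-5968327, plus): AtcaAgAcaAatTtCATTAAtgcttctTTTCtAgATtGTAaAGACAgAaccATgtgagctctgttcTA
SAUR22 (chr5:5975174-5975242, minus): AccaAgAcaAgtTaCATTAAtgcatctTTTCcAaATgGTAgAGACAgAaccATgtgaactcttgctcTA
SAUR23 (chr5:5975561-5975630, plus): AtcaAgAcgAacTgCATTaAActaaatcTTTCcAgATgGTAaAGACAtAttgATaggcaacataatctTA
SAUR24 (chr5:5983569-5983633, plus): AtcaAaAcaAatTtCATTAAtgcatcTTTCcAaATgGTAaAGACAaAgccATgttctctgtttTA

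The block ended 200 to 211 bases before the coding start in 5 of the genes and 400 bases before it in SAUR23. Its distance to the transcript start varied more among those 5 genes. It was 25 bases in SAUR21, 50 in SAUR24, 87 in SAUR22, 105 in SAUR19 and 108 in SAUR20, and 150 in SAUR23. The windows of 250 bases thus covered partly different stretches. The longest run of letters found in all 6 blocks, CATTAA (the alignment puts a gap inside it), is common and occurs in 25.3% of the 27443 windows of 250 bases before RefSeq genes, both strands searched. The PBE-box CACATG, a site PIF factors are known to bind, was found in 3 of the 6 windows, those of SAUR19, SAUR21 and SAUR22, against 11.1% of all windows. In each of these 3 a match fell inside the block, where the printed strand reads catgtg. The auxin response element TGTCTC was found in 2 of 6, SAUR20 and SAUR22, against 10.9% of windows, again inside the block, where the printed strand reads gagaca. The G-box CACGTG was in 0 of 6 windows (6.49% of all) and the heat shock element TTCNNGAA in 0 of 6 (7.69% of all). The other motifs searched were the TATA box TATAAA (0 of 6 windows, 47.4% of all) and TGTCNN (6 of 6, 74.5%). ACGTG (22.9% of all) and GGCCCA (13.6% of all) were each in 1 of 6. The 6 windows hold related sequence, so matches in them are not independent, and these counts cannot show enrichment over the shares. A match is only a match of letters, and no match says only that these letters are not in this window.

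The first comparison in shoots was 32 °C against 22 °C. Fold changes were taken on the log2(value + 1) scale, tested with limma, a linear model that shares its estimate of spread across genes, and called where p, adjusted over all 21877 genes tested, was below 0.05. All 6 genes rose: SAUR24 2.15-fold, SAUR20 2.07-fold, SAUR21 1.94-fold, SAUR19 1.84-fold, SAUR22 1.67-fold and SAUR23 1.40-fold. They also rose together in the gradient, where the shoot was likewise at 32 °C, by 2.24-fold (SAUR23) to 3.49-fold (SAUR20) over 22 °C. In each of the 6 genes the levels were ordered alike, with every gradient shoot library above every 32 °C library and every 32 °C library above every 22 °C library.

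SAUR20 had 355 and 369 normalised counts in the 22 °C shoot libraries, 745, 692 and 817 at 32 °C, and 1238 and 1297 in the gradient. The 3 groups were far apart relative to the spread within them. The log2 fold change at 32 °C against 22 °C was 1.05 ± 0.096 (SE; adjusted p = 4.76e-05, limma). Against the same libraries the gradient gave 1.80 ± 0.105 (adjusted p = 1e-05, limma).

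SAUR21, the gene with the longest transcript of the 6, had 448 and 496 at 22 °C, 919, 828 and 1005 at 32 °C, and 1338 and 1656 in the gradient. Its 2 gradient libraries differed more from each other than those of SAUR20, but both exceeded the highest 32 °C library. The log2 fold changes were 0.95 ± 0.125 (SE; adjusted p = 0.000293, limma) at 32 °C and 1.66 ± 0.136 (adjusted p = 4.11e-05, limma) in the gradient, both against 22 °C.

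SAUR24 had 410 and 321 at 22 °C, 866, 715 and 767 at 32 °C, and 1236 and 1176 in the gradient. Its 22 °C libraries were the least alike of the 6 genes. The log2 fold changes against 22 °C were 1.1 ± 0.13 (SE; adjusted p = 0.000171, limma) at 32 °C and 1.73 ± 0.142 (adjusted p = 4.06e-05, limma) in the gradient.

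SAUR22 had 453 and 440 at 22 °C, 816, 687 and 741 at 32 °C, and 1069 and 1177 in the gradient. SAUR19, the member for which inhibition of the phosphatases was worked out, had 252 and 253 at 22 °C, 514, 452 and 437 at 32 °C, and 599 and 656 in the gradient. For both genes the groups did not overlap. SAUR22 rose by 0.74 ± 0.10 on the log2 scale (SE; adjusted p = 0.000357, limma) at 32 °C and SAUR19 by 0.88 ± 0.109 (adjusted p = 0.000225, limma). The gradient shoots gave 1.33 ± 0.11 (adjusted p = 4.17e-05, limma) for SAUR22 and 1.31 ± 0.12 (adjusted p = 6.75e-05, limma) for SAUR19, again against 22 °C.

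SAUR23 had 299 and 316 at 22 °C, 446, 416 and 435 at 32 °C, and 621 and 764 in the gradient. Its step from 22 °C to 32 °C was the smallest of the 6, 0.49 ± 0.115 on the log2 scale (SE; adjusted p = 0.00601, limma). The gradient against 22 °C gave 1.16 ± 0.126 (adjusted p = 0.000151, limma).

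**Figure D1:**
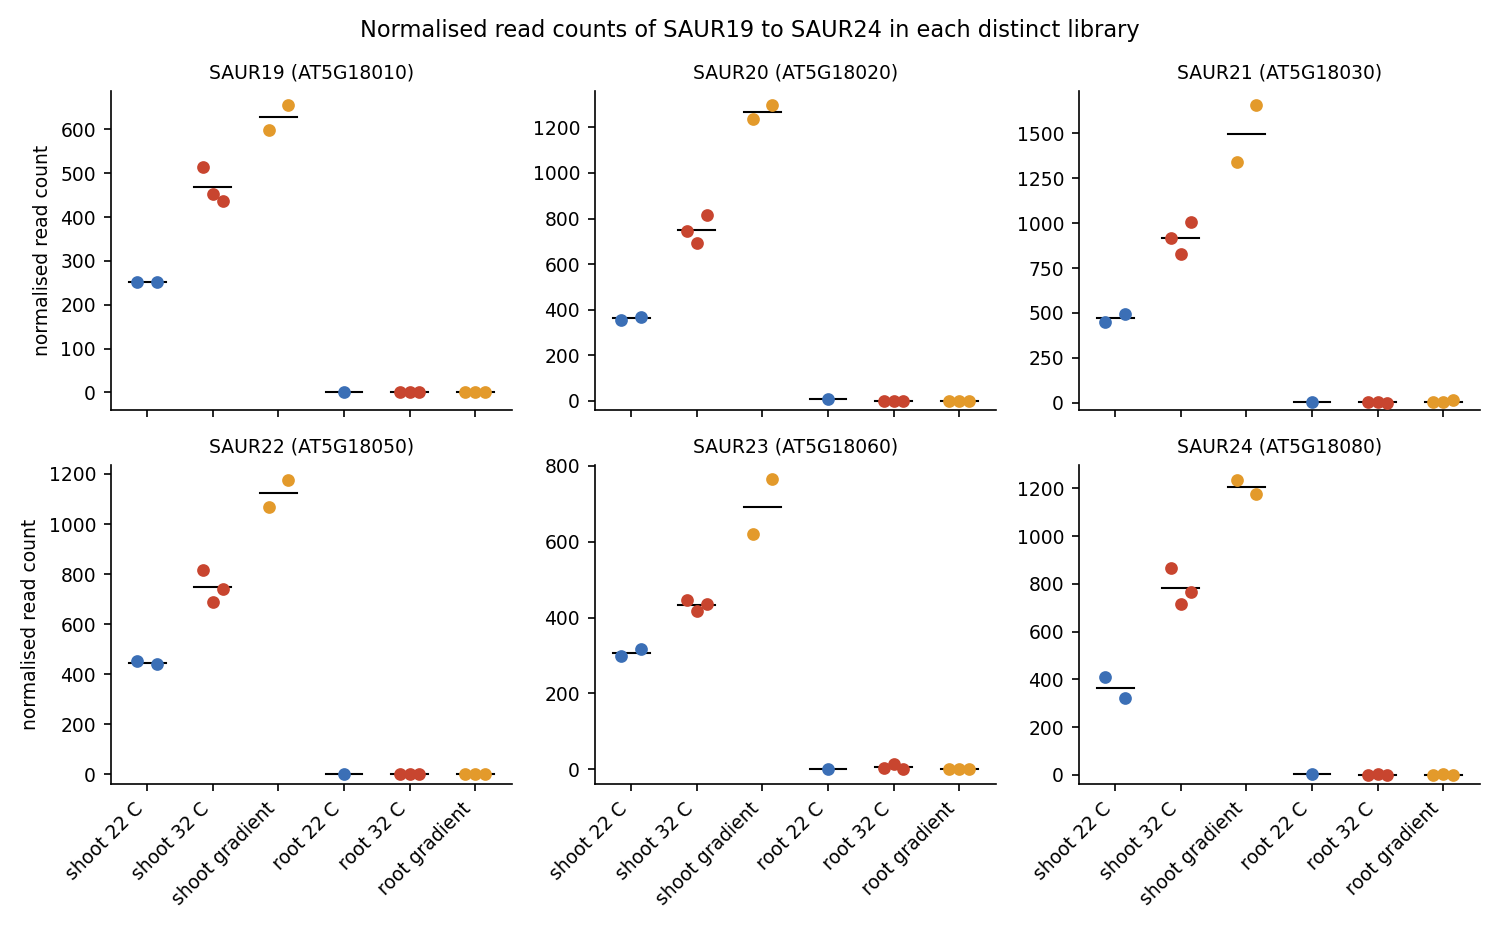
Normalised read counts (y axes, linear, a different range in each panel) of the 6 genes in the 14 distinct libraries; each point is a library, each bar a group mean, and the x axis gives organ and regime. In shoots the gradient libraries lie above the 32 °C libraries and these above the 22 °C libraries in all 6 panels, while root values lie between 0 and 13.

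These counts need the background of all genes. At 32 °C against 22 °C, 55.5% of the 21877 genes tested in shoots were called higher and 13.0% lower (limma on log2(value + 1), adjusted p below 0.05), and the median log2 fold change of all tested genes was 0.49. The 6 of 6 members called higher therefore stand beside a majority of genes called the same way, and 61.7% of all tested genes likewise had every 32 °C library above every 22 °C library. The members' median log2 fold change was 0.92. TMM scaling, which rescales each library so that the trimmed mean change between libraries is near 0, brings the median of all genes to 0.04 and the calls to 32.4% higher and 30.3% lower. After it 5 of the 6 genes were still called higher, with log2 fold changes of 0.28 (SAUR22) to 0.65 (SAUR24), while SAUR23 was at 0.04 (adjusted p = 0.806). SAUR23 thus moved with the median gene from 22 °C to 32 °C and was not shown to rise relative to it. With the libraries of both organs in 1 fit, 1 of the 6 was called.

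Between gradient and 22 °C shoots, 52.6% of tested genes were called higher and 11.2% lower, 66.3% had every gradient library above every 22 °C library, and the median log2 fold change was 0.49. The members' median was 1.49. After TMM scaling, with 28.9% of all genes called higher and 27.4% lower, 6 of 6 members were still called higher, with log2 fold changes from 0.71 (SAUR23) to 1.35 (SAUR20). This comparison and the one above share their 22 °C libraries.

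The gradient against 32 °C compares shoots held at the same labelled temperature whose root zones differed. The 6 genes were 1.34-fold (SAUR19) to 1.69-fold (SAUR20) higher in the gradient shoots. SAUR20 alone was called, at 0.76 ± 0.096 on the log2 scale (SE; adjusted p = 0.0391, limma). The others had log2 fold changes of 0.70 for SAUR21 (95% interval 0.41 to 0.99, adjusted p = 0.0713), 0.67 for SAUR23 (0.40 to 0.94, adjusted p = 0.0642), 0.63 for SAUR24 (0.33 to 0.93, adjusted p = 0.0972), 0.59 for SAUR22 (0.35 to 0.82, adjusted p = 0.0642) and 0.43 for SAUR19 (0.17 to 0.68, adjusted p = 0.143), all by limma with adjustment over all tested genes.

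Few genes were called at all in this comparison. Of 21877 tested, 0.123% were called higher and 0.265% lower, against 3224 with an unadjusted p below 0.05, and the median log2 fold change was 0.01. By unadjusted p the members ranked 32 (SAUR20), 148 (SAUR22), 153 (SAUR23), 172 (SAUR21), 325 (SAUR24) and 763 (SAUR19) among all tested genes. Every gradient library lay above every 32 °C library in 6 of 6 members and in 17.1% of tested genes. TMM scaling left SAUR20 the only member called, with 0.11% of genes called higher and 0.288% lower.

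The call of SAUR20 rests on few libraries. Leaving out 32 °C replicate 1 or 2, or gradient replicate 1 or 2, ended it (adjusted p = 0.136, 0.131, 0.24 and 0.221, limma), and over all 19 alternatives its adjusted p ran from 0.00506 to 0.482 while the log2 fold change stayed between 0.70 and 0.82. Keeping the identical gradient columns as separate replicates called 6 of 6 members and library weights 5 of 6.

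**Figure D2:**
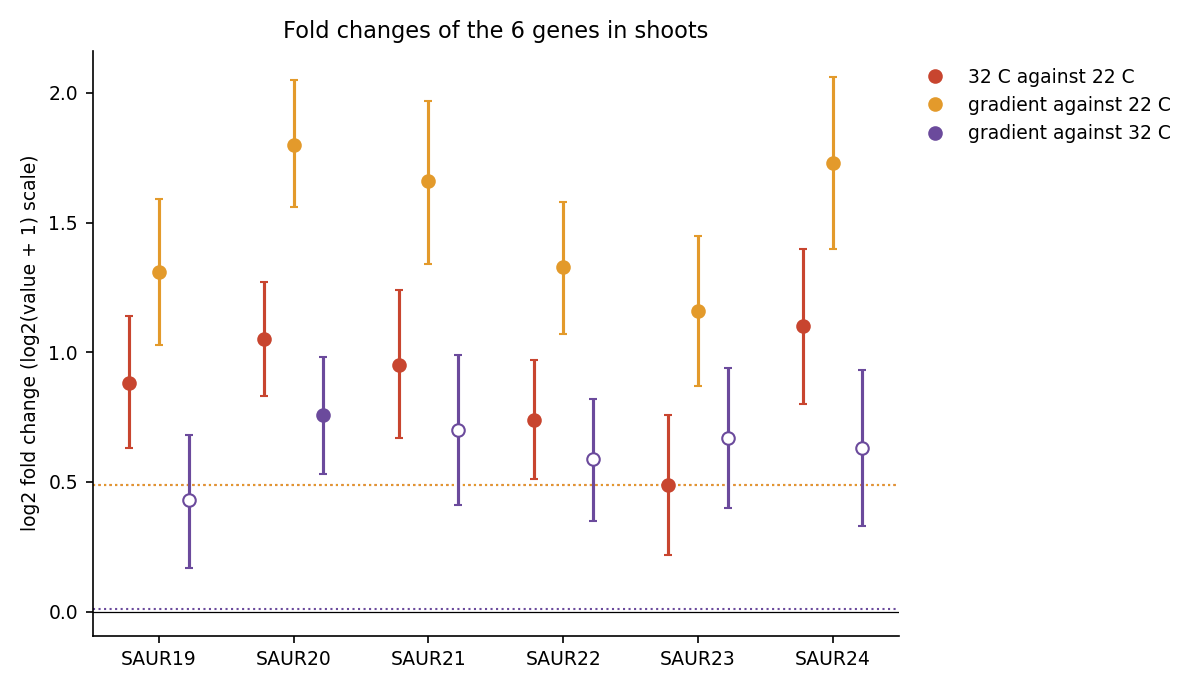
Log2 fold changes in shoots (y axis, log2(value + 1) scale) of the 6 genes for 3 comparisons, with 95% intervals from limma; filled points passed an adjusted p below 0.05, and dotted lines mark the median of all tested genes, which was 0.49 for both comparisons with 22 °C. All 6 genes pass in both comparisons with 22 °C, and SAUR20 alone passes in the gradient against 32 °C.

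The members kept similar proportions while their summed level grew. The 6 genes together had 2195 and 2217 normalised counts in the 22 °C shoots, 3790 to 4306 at 32 °C, and 6101 and 6726 in the gradient, which is 2206 ± 15.6 (SD, n = 2), 4099 ± 273 (SD, n = 3) and 6414 ± 442 (SD, n = 2). SAUR21 held 20.2% to 24.6% of that sum in each shoot library, SAUR20 16.0% to 20.3%, SAUR22 17.5% to 20.4%, SAUR24 14.6% to 20.3%, SAUR23 10.2% to 14.4% and SAUR19 9.75% to 11.9%. The largest shifts were in SAUR23, from 13.9% at 22 °C to 10.6% at 32 °C and 10.8% in the gradient, and in SAUR20, from 16.4% to 18.3% and 19.8% (group means). These are shares of counts, which also depend on transcript length, and they were not tested.

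Per kilobase of RefSeq transcript, which allows levels of different genes to be set beside each other, SAUR20 had 731 ± 20.0 (SD, n = 2) at 22 °C, 1518 ± 127 (SD, n = 3) at 32 °C and 2561 ± 84.3 (SD, n = 2) in the gradient. Over the 603 bases of its gene record instead of the 495 of its transcript, a length tried after seeing the data, these became 600 ± 16.4, 1246 ± 104 and 2102 ± 69.2. At either length its libraries in the gradient lay above those of the other 5 genes, whereas at 22 °C and 32 °C the longer length made them overlap with libraries of SAUR21, SAUR24 and, at 22 °C, SAUR22, so its place there is not settled. Among the other 5 genes at 22 °C SAUR22 (598 ± 12.3), SAUR24 (584 ± 101) and SAUR21 (563 ± 40.5) came first, all SD with n = 2, and among these 3 each overlapped its neighbour in its libraries. SAUR19 (399 ± 1.12) and SAUR23 (380 ± 14.8) came last, and these libraries overlapped neither each other nor the rest. At 32 °C SAUR24 (1250 ± 123), SAUR21 (1093 ± 105) and SAUR22 (1001 ± 86.7) led, again with overlap between neighbours, ahead of SAUR19 (739 ± 64.5) and SAUR23 (534 ± 18.7), each SD with n = 3. In the gradient the order was SAUR24 (1927 ± 67.8), SAUR21 (1784 ± 268), SAUR22 (1503 ± 102), SAUR19 (991 ± 63.7) and SAUR23 (855 ± 125), each SD with n = 2, and libraries of SAUR24 and SAUR21 overlapped. The uncertain split of reads among the copies touches these orders too.

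In roots the 6 genes were at or near 0. SAUR19 and SAUR22 never exceeded 1 normalised count in the 7 root libraries, and SAUR24 never exceeded 4. SAUR20 had 10 in the 22 °C library and 0 or 1 in each of the others. SAUR21 ranged from 1 to 13, with 13 in gradient replicate 3, and SAUR23 from 0 to 13, with 13 in 32 °C replicate 2. The sum of all 6 was 21 in the 22 °C library, 11, 19 and 6 at 32 °C, and 6, 5 and 17 in the gradient, so the regimes overlapped.

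Each member was called lower in roots than in shoots in all 3 regimes (6 of 6 each, limma), where 21.0% (22 °C), 23.4% (32 °C) and 33.4% (gradient) of the 23070 genes tested in both organs were called lower in roots. The adjusted p lay between 2.03e-08 and 1.35e-05 at 22 °C, between 1.47e-10 and 3.19e-07 at 32 °C, and between 1.95e-10 and 9.88e-08 in the gradient (limma). No fold is given because root values at or near 0 make it depend on the pseudocount. Apart from SAUR20, the members met the minimum for the fit of both organs only through shoots, where they are high. Their calls therefore restate the near absence in roots and are no separate support for it.

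Only SAUR20 reached the minimum for a test within roots, and it did so through the identical 22 °C columns, both at 10. It was called lower at 32 °C than at 22 °C (adjusted p = 0.0477, limma), beside 12.1% of tested genes called lower, on a single 22 °C library. The call was lost without 32 °C replicate 1, 2 or 3 or gradient replicate 2 (adjusted p = 0.098, 0.0685, 0.0678 and 0.0687, limma), and counting the identical columns once removed the gene from the test. Whether roots and shoots responded differently cannot be read for these genes. An interaction test called 1 member at 32 °C against 22 °C, 3 in the gradient against 22 °C and 1 in the gradient against 32 °C, beside 19.7%, 22.7% and 19.1% of all tested genes called the same way. Apart from SAUR20, the members entered that fit only through their shoot values. With root values of 0 to 13 the rise in shoots alone can give such calls.

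The other SAUR genes give the family's setting. Of 73, 58 were tested in shoots and 38 reached a group mean of 10 in roots. At 32 °C against 22 °C, 27 of the 58 rose, 8 fell and 23 were not called. Of all tested genes 55.5% were called higher and 13.0% lower. The median log2 fold change was 0.43 against 0.49 for all genes. After TMM scaling 9 rose and 13 fell, beside 32.4% and 30.3% of all tested genes. Between gradient and 22 °C shoots 32 rose and 6 fell, beside 52.6% and 11.2%, with a median of 0.84 against 0.49. After TMM scaling 19 rose and 7 fell, beside 28.9% and 27.4%. Between gradient and 32 °C shoots 1 rose and none fell by limma, beside 0.123% and 0.265%. An unadjusted p below 0.05 was found in 24 of the 58, 23 of them higher, and in 3224 of all 21877 genes. The median was 0.42 against 0.01.

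SAUR6 (AT2G21210) went from 470.5 ± 46.0 (SD, n = 2) normalised counts at 22 °C to 1189 ± 87.3 (SD, n = 3) at 32 °C and 1666 ± 89.8 (SD, n = 2) in the gradient, with 16 to 20 on average in the root groups. SAUR14 (AT4G38840) went from 614.5 ± 88.4 to 1273 ± 13.1 and 1703 ± 185 with the same n. Both were called against 22 °C in each regime, before and after TMM scaling. SAUR63 (AT1G29440), a gene that promotes elongation of hypocotyls and stamen filaments, was the 1 other SAUR gene called in the gradient against 32 °C, with 260 ± 18.4, 391.7 ± 38.7 and 796 ± 73.5 in the same 3 groups and a log2 fold change of 1.02 (adjusted p = 0.0391, limma).

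Some SAUR genes went the other way. SAUR71 (AT1G56150) fell from 253 ± 36.8 (SD, n = 2) at 22 °C to 47.0 ± 14.2 (SD, n = 3) at 32 °C and 33 ± 4.24 (SD, n = 2) in the gradient. SAUR41 (AT1G16510) fell from 234.5 ± 7.78 to 38.3 ± 13 and 43.5 ± 10.6. The log2 fold changes at 32 °C were -2.44 for SAUR71 (adjusted p = 0.000124, limma) and -2.64 for SAUR41 (adjusted p = 0.000176, limma), so the family did not move as 1 group.

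The 9 PP2C.D phosphatases, the proteins SAUR19 inhibits, were all tested in shoots. At 32 °C against 22 °C 3 rose, 2 fell and 4 were not called (1 rose and 4 fell after TMM scaling). Of all tested genes 55.5% were called higher and 13.0% lower (32.4% and 30.3% after TMM scaling). The median log2 fold change of the 9 was 0.28 against 0.49 for all genes. PP2C.D2 (AT3G17090) and PP2C.D6 (AT3G51370), which act on the proton pump, were the pair of the list that fell before TMM scaling. PP2C.D6 had 5184 ± 266 (SD, n = 2) at 22 °C, 3705 ± 101 (SD, n = 3) at 32 °C and 3864 ± 194 (SD, n = 2) in the gradient, and PP2C.D2 had 2756 ± 134, 2017 ± 118 and 2186 ± 49.5. Their log2 fold changes at 32 °C were -0.48 (adjusted p = 0.000451, limma) and -0.45 (adjusted p = 0.00108, limma). PP2C.D5 (AT4G38520), also of this trio, had 3321 ± 58.0, 3145 ± 23.5 and 3104 ± 141 (adjusted p = 0.29 at 32 °C, limma).

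PP2C.D1 (AT5G02760), a phosphatase of the same clade, went the other way with 2755 ± 433 (SD, n = 2), 3795 ± 453 (SD, n = 3) and 5457 ± 549 (SD, n = 2). It was called higher at 32 °C (log2 fold change 0.46, adjusted p = 0.014, limma), a call lost after TMM scaling (0.01), and higher in the gradient against 22 °C (0.99, adjusted p = 0.000639, limma; 0.54 after TMM scaling, still called).

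Of the 11 AHA proton pumps, 10 were tested in shoots. At 32 °C against 22 °C 3 rose and 1 fell (2 rose and 3 fell after TMM scaling). Beside them, 55.5% of all tested genes were called higher and 13.0% lower (32.4% and 30.3% after TMM scaling). AHA1 (AT2G18960) and AHA2 (AT4G30190), the main pumps of the plant body, had small differences. AHA1 had 20210 ± 1194 (SD, n = 2) at 22 °C, 26350 ± 1205 (SD, n = 3) at 32 °C and 23690 ± 365 (SD, n = 2) in the gradient. Its log2 fold change at 32 °C was 0.38 (adjusted p = 0.00241, limma), which became -0.07 and was not called after TMM scaling. AHA2 had 15620 ± 3219, 12990 ± 1136 and 14810 ± 1607 (adjusted p = 0.138 at 32 °C, limma). AHA7 (AT3G60330), at 64.5 ± 4.95 in 22 °C shoots, reached 260 ± 47.2 at 32 °C and 242 ± 24.0 in the gradient, a log2 fold change of 1.98 at 32 °C (adjusted p = 4.66e-05, limma). AHA7 is better known from roots, where it had 662 in the 22 °C library, 264 to 849 at 32 °C and 1389 to 3589 in the gradient. The root marker sum of the shoot libraries given above, which is mostly PYK10, rose from 22 °C to 32 °C too. The root markers TIP2;3 and CASP4 were not called there. A link between AHA7 and these markers was not tested.

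Of the 11 alpha-expansins listed here, wall-loosening proteins, 10 rose and 1 fell at 32 °C against 22 °C (7 and 1 after TMM scaling). Of all tested genes 55.5% were called higher (32.4% after TMM scaling). The median log2 fold change was 1.04 against 0.49 for all genes. EXPA8 (AT2G40610) had 3120 ± 254 (SD, n = 2) at 22 °C, 6432 ± 870 (SD, n = 3) at 32 °C and 8320 ± 152 (SD, n = 2) in the gradient. EXPA1 (AT1G69530) had 3785 ± 403, 7582 ± 459 and 11570 ± 2348. Both were called higher in either regime against 22 °C, before and after TMM scaling. EXPA4 (AT2G39700) was at 1266 ± 257, 7176 ± 1201 and 4066 ± 1002 in these groups, a different order from that of the 6 SAUR genes. None of the 11 was called by limma in the gradient against 32 °C, 4 had an unadjusted p below 0.05, and the median was 0.00.

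**Figure D3:**
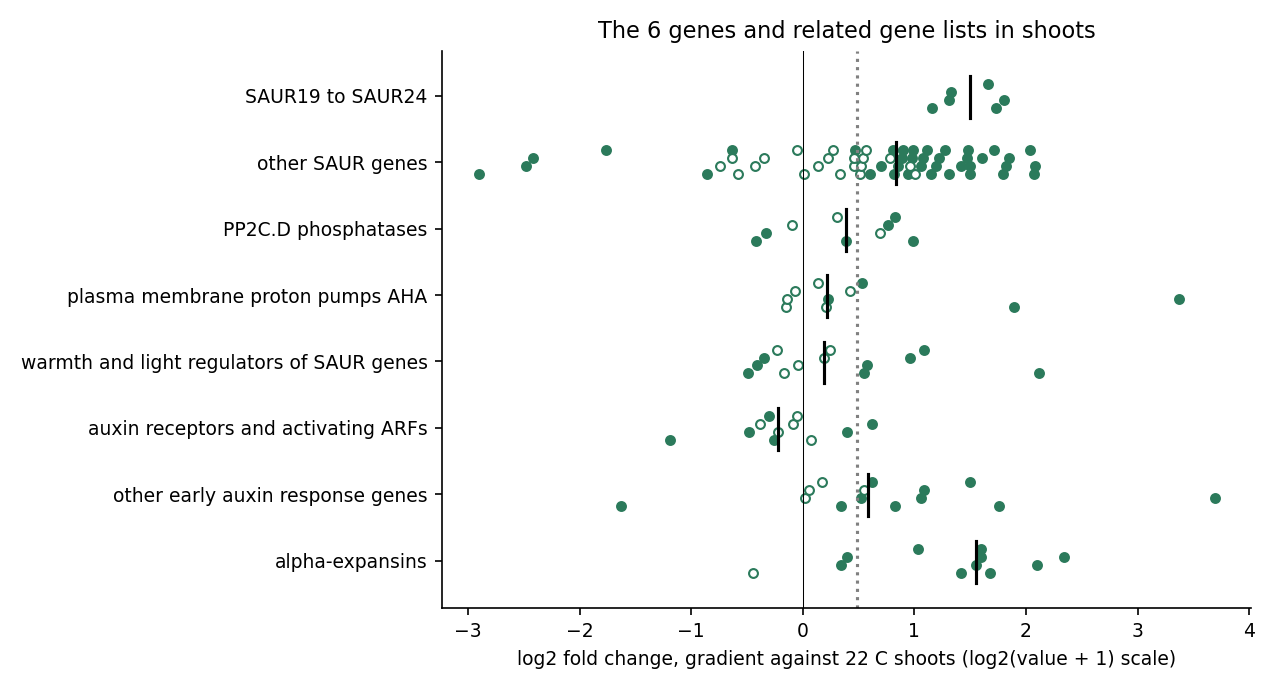
Log2 fold changes in gradient against 22 °C shoots (x axis, log2(value + 1) scale) for the 6 genes, the other SAUR genes and 6 lists of related genes; each point is a tested gene, filled where the adjusted p was below 0.05 (limma), black bars are list medians, and the dotted line is the median of all tested genes, 0.49. The medians of the 6 genes (1.49) and of the alpha-expansins (1.55) lie to the right of the line, and that of the auxin receptors and activating ARFs (-0.22) to the left.

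Regulators of the SAUR19 subfamily gave a mixed picture. Of 13 warmth and light regulators, 5 rose and 3 fell at 32 °C against 22 °C (2 and 7 after TMM scaling). The shares of all tested genes were 55.5% higher and 13.0% lower (32.4% and 30.3% after TMM scaling). PIF4 (AT2G43010), the transcription factor best known for warmth-induced elongation, fell from 8132 ± 658 (SD, n = 2) to 5350 ± 577 (SD, n = 3) and stood at 6130 ± 326 (SD, n = 2) in the gradient, a log2 fold change of -0.61 at 32 °C (adjusted p = 0.00123, limma). PIF7 (AT5G61270), a related factor that acts in shade and warmth, had 563.5 ± 7.78, 854 ± 46.9 and 1098 ± 89.8, the same order as the 6 SAUR genes. PIF7 was called higher at 32 °C (0.60, adjusted p = 0.00062, limma), a call lost after TMM scaling (0.14), and in the gradient against 22 °C (0.96, adjusted p = 0.000117, limma; 0.51 and called after TMM scaling). HFR1 (AT1G02340), which restrains PIF factors, rose from 2101 ± 84.9 to 3617 ± 178 and 4479 ± 464 and was called higher in both regimes against 22 °C, before and after TMM scaling.

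The photoreceptor and thermosensor PHYB (AT2G18790) had 3988 ± 112 (SD, n = 2), 5020 ± 235 (SD, n = 3) and 5861 ± 549 (SD, n = 2), with a log2 fold change at 32 °C of 0.33 (adjusted p = 0.0067, limma) that turned to -0.12 after TMM scaling and was not called. ELF3 (AT2G25930), a clock component that represses PIF4, had 1668 ± 31.1, 1644 ± 165 and 1902 ± 17.7 (adjusted p = 0.817 at 32 °C, limma). None of the 13 was called by limma in the gradient against 32 °C, and 3 had an unadjusted p below 0.05.

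Of the 11 auxin receptors and activating ARFs, 2 rose and 3 fell at 32 °C (0 and 8 after TMM scaling). This stands beside 55.5% of all tested genes called higher and 13.0% lower (32.4% and 30.3% after TMM scaling). The median log2 fold change of the 11 was -0.06 against 0.49 for all genes. The receptor TIR1 (AT3G62980) fell from 5338 ± 104 (SD, n = 2) at 22 °C to 2458 ± 297 (SD, n = 3) at 32 °C and 2354 ± 346 (SD, n = 2) in the gradient. Its log2 fold change at 32 °C was -1.13 (adjusted p = 0.000106, limma). ARF19 (AT1G19220), an activating factor, had 1042 ± 20.5, 1340 ± 41.4 and 1600 ± 24.7, and was called higher at 32 °C (0.36, adjusted p = 0.00212, limma) but stood at -0.09, not called, after TMM scaling.

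Other early auxin response genes rose and fell. Of 14 tested, 7 rose and 4 fell at 32 °C (5 and 6 after TMM scaling). All tested genes gave 55.5% higher and 13.0% lower there (32.4% and 30.3% after TMM scaling). In the gradient against 22 °C 9 of the 14 rose and 1 fell (5 and 2 after TMM scaling). All tested genes gave 52.6% and 11.2% in that comparison (28.9% and 27.4% after TMM scaling). IAA1 (AT4G14560), an auxin-induced repressor, had 370.5 ± 20.5 (SD, n = 2), 788.7 ± 111 (SD, n = 3) and 1049 ± 50.9 (SD, n = 2), like the 6 SAUR genes. IAA29 (AT4G32280), a repressor gene induced through PIF factors, had 1734 ± 94.8, 1232 ± 83.0 and 2200 ± 116. It fell at 32 °C against 22 °C (-0.49, adjusted p = 0.00125, limma) and was the 1 gene of this list called in the gradient against 32 °C (0.84, adjusted p = 0.0242, limma). IAA19 (AT3G15540) had 659.5 ± 0.707, 561.7 ± 118 and 1036 ± 279, with an adjusted p = 0.129 in the gradient against 32 °C (limma). The enzyme gene GH3.5 (AT4G27260), whose product conjugates auxin to amino acids, fell from 8168 ± 15.6 to 3061 ± 95.4 and 2654 ± 467.

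The genes between and beside the 6 were looked at because neighbours can move together. Of 12 loci in the table from AT5G17990 to AT5G18110 that are not members, 8 were tested in shoots. At 32 °C against 22 °C 6 rose, 1 fell and 1 was not called (6 and 1 called after TMM scaling). Of all tested genes 55.5% were called higher and 13.0% lower (32.4% and 30.3% after TMM scaling). The median log2 fold change of the 8 was 1.30 against 0.49 for all genes. AT5G18040 (HTT2 among its RefSeq synonyms), a heat-induced target of TAS1 small RNAs that lies between SAUR21 and SAUR22, had 158.5 ± 10.6 (SD, n = 2) at 22 °C, 474 ± 66.9 (SD, n = 3) at 32 °C and 425.5 ± 21.9 (SD, n = 2) in the gradient. AT5G18065 (HTT3), between SAUR23 and SAUR24, had 56.0 ± 1.41, 152.3 ± 52.2 and 122 ± 5.66. DRT101 (AT5G18070), next to SAUR24, had 270 ± 59.4, 632.3 ± 67.7 and 814.5 ± 67.2.

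Unlike the 6 SAUR genes, the neighbours AT5G18040, AT5G18065 and DRT101 were expressed in roots. The 22 °C root library held 312 normalised counts of AT5G18040, 197 of AT5G18065 and 573 of DRT101. Not every neighbour tested in shoots was like them. VDD (AT5G18000) had 0 to 4 in the root libraries, and AT5G18090 had 1 at 22 °C and 8 to 19 in the rest. In shoots, none of the 8 tested neighbours was called by limma in the gradient against 32 °C, and 2 had an unadjusted p below 0.05. Their median log2 fold change was -0.14, against 0.65 for the 6 SAUR genes.

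**Figure D4:**
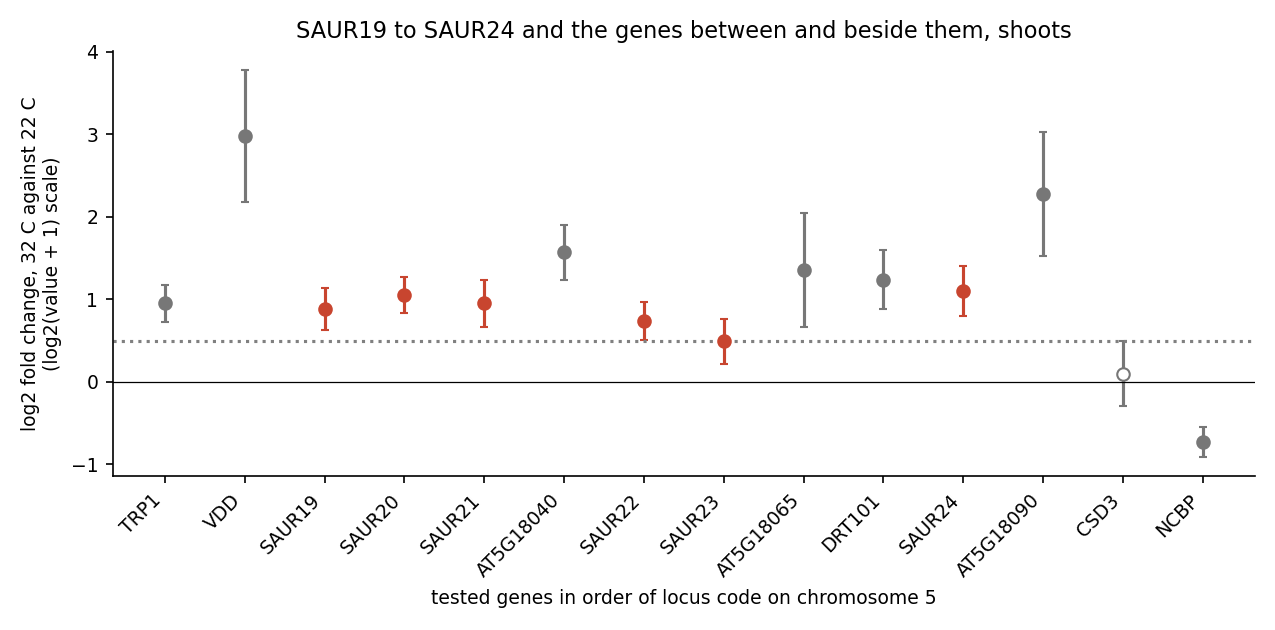
Log2 fold changes at 32 °C against 22 °C in shoots (y axis, log2(value + 1) scale) with 95% intervals from limma for SAUR19 to SAUR24 (red) and 8 tested neighbours (grey), in order of locus code; filled points passed an adjusted p below 0.05 and the dotted line is the median of all tested genes, 0.49. The 6 SAUR genes lie between 0.49 and 1.1, and DRT101, AT5G18040 and AT5G18065 between or beside them at 1.24 to 1.57.

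The genes most like the 6 in pattern were found by Pearson's r between each gene's log2(value + 1) and the mean over the 6 members. Over the 7 shoot libraries, which share the general shift between regimes, the median r of 19183 genes was 0.70 and 363 exceeded 0.95, so a high r is common here. The 6 highest were CSP41A (AT3G63140, r = 0.9963), a chloroplast RNA-binding protein, AT4G25835 (0.9954), MSRB6 (AT4G04840, 0.9929), which repairs oxidised methionine, PRE1 (AT5G39860, 0.9926), AT3G06145 (0.9914) and PnsL2 (AT1G14150, 0.9909), a subunit of the chloroplast NDH complex. Their steps differed in size: CSP41A averaged 8636 at 22 °C, 10280 at 32 °C and 12100 in gradient shoots, and PRE1, a small helix-loop-helix factor that promotes cell elongation, averaged 348.5, 828.7 and 1342. PRE1 also resembled the 6 genes in roots, at 0 to 2 on average.

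Among 43 other SAUR genes with enough signal, 13 had an r above 0.9 over the shoot libraries, beside 2234 of all 19183 genes. SAUR6 and SAUR26 led them (both 0.98), and 10 of the 43 had an r below 0, down to -0.93 for SAUR71. Over all 14 libraries the gap between organs dominates, and 1756 of 20778 genes had an r above 0.95. SAUR63 was the most alike (r = 0.9984), followed by PGR5-LIKE A (AT4G22890, 0.9979), APO2 (AT5G57930, 0.9978), AT2G35410 (0.9975), CER2 (AT4G24510, 0.9974), which takes part in cuticular wax synthesis, and CRK42 (AT5G40380, 0.9974).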

How the data were processed

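The deposited table holds the authors' normalised read counts per locus as whole numbers, treated as a score because no source used here tells how they were normalised. Tools named in the submitters' processing notes, without a role, are DESeq2, HISAT2 and STAR 2.5.3a. Tests for counts were therefore not used. Members and gene lists were chosen with earlier results of these data known. Values were tested with limma 3.58.1 (R 4.3.3) on log2(value + 1), with an intensity trend, 1 fit per organ, two-sided, and Benjamini-Hochberg adjustment over all genes with at least 10 in at least 2 columns. An adjusted p below 0.05 made a call. There were 4 residual degrees of freedom per organ and 8 in the joint fit, which gave organ contrasts and interactions. The lone 22 °C root library took its spread from the other root groups. The limma step was tested on simulated data.

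Genes were named by a rule on adjusted p within each list, plus the 6 members, their neighbours, fixed genes and those most alike in pattern. Some genes the rule allowed were left out after their values were seen. AT5G01830, which shares the symbol SAUR21 but is not a SAUR gene, was left out of the family. Names came from RefSeq for 32548 of 32833 loci. Sequences were cut from RefSeq TAIR10.1 with pandas 2.3.3 and biopython 1.88 and aligned with MAFFT 7.526. Figures were drawn with matplotlib 3.10.9. Alternatives were pseudocounts of 0.5 and 8, no filter, TMM factors (trims of 30% and 5%), equal totals, library weights, identical columns kept separate, a replicate block, all libraries or only 2 groups in a fit, and each library left out. A second numbering of the block and a filter counting each identical pair as 1 column were chosen after seeing the data. Deviations from group means were correlated between libraries of the same number only. Those of 32 °C roots and shoots gave 0.16, 0.24 and 0.26, and other pairs of groups gave -0.19 to 0.2. The numbers of the 32 °C libraries may therefore pair the organs, which was not tested. The block changed no member's call in roots against shoots at 32 °C. In the organ difference at 32 °C against 22 °C it added a call of SAUR24. Depth is unknown, so no counting intervals are given.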

Additional observations from a re-analysis of the deposited data

Results flagged for a closer look

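Values for 4 members passed an interaction test of root against shoot (limma, 1 fit of both organs), but they do not show that the organs responded differently. Apart from SAUR20, which also met the minimum through the identical 22 °C root columns, the members entered the fit only through the shoots. Their root values were 0 to 13, the 22 °C root group was 1 library, and the size of each value depends on the pseudocount. The shares of all tested genes called the same way stand with the root results above. For SAUR20 the root change minus the shoot change was -3.84 on the log2 scale at 32 °C against 22 °C (adjusted p = 0.00063, and 0.000778 after TMM scaling) and -4.93 in the gradient against 22 °C (adjusted p = 0.000246, and 0.000378 after TMM scaling). The other 3 calls were lost after TMM scaling. Gradient against 22 °C gave -1.98 for SAUR19 (adjusted p = 0.0372, and 0.0818 after TMM scaling) and -3.05 for SAUR24 (adjusted p = 0.0324, and 0.0533 after TMM scaling). For SAUR23 the value was -2.38 in the gradient against 32 °C (adjusted p = 0.0454, 0.0564 after TMM scaling and 0.0799 with the replicate block). With pseudocounts of 0.5 and 8, members called in the gradient against 22 °C numbered 1 and 6.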

How the results depend on the processing

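In shoots all members kept their direction under each of the 114 refitted values per comparison. Of these, 108 stayed on the same side of the threshold at 32 °C against 22 °C, 113 in the gradient against 22 °C and 97 in the gradient against 32 °C. With all libraries of both organs in 1 fit, 1 member was called at 32 °C against 22 °C. The gradient against 32 °C had 6 members called with identical columns kept separate, 5 with library weights, and 0 with both organs in 1 fit, with no filter or with the replicate block under either numbering. Leaving out 1 library each gave 0 to 1. The block rests on numbers whose pairing of shoot groups is not established, as same-numbered shoot libraries gave correlations of -0.14 to 0.2. The call of SAUR20 in roots at 32 °C became 0 with pseudocount 0.5, with the replicate block under either numbering and with the filter counting identical columns once, and leaving out 1 library gave 0 to 1. For gradient against 22 °C roots 1 member was called with both organs in 1 fit, identical columns separate, library weights or pseudocount 8, and 0 to 1 on leaving out 1 library. For gradient against 32 °C roots 1 was called with both organs in 1 fit. For the organ difference at 32 °C against 22 °C, 3 members were called with identical columns separate, library weights or pseudocount 8, and 2 with the replicate block, which added SAUR24 (adjusted p = 0.0663 without and 0.0499 with it, limma; 1 to 3 on leaving out 1 library). For that of gradient against 22 °C 6 were called with library weights or pseudocount 8 and 1 with no filter, pseudocount 0.5 or TMM factors (1 to 4 on leaving out 1 library). For that of gradient against 32 °C 2 were called with identical columns separate, 3 with library weights or pseudocount 8, and 0 with no filter, pseudocount 0.5, TMM factors or the replicate block under either numbering (0 to 2 on leaving out 1 library). SAUR21 in that last difference turned from 0.01 to -1.89 with library weights (adjusted p = 0.00846, limma). The causes were not tested. The 6 calls of root against shoot in each regime held under all alternatives run. With root values at or near 0, another outcome was hardly possible.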
